A study of Mus musculus with 6 samples.

Results

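The collapsin response mediator proteins (CRMPs) are encoded by 5 mouse genes, *Crmp1* (CRMP1), *Dpysl2* (CRMP2), *Dpysl4* (CRMP3), *Dpysl3* (CRMP4) and *Dpysl5* (CRMP5). The 5 genes were taken by their symbols, as a gene family, from the 43346 Ensembl genes listed for each library, and all 5 passed the filter on low counts that left 15747 genes. RNA-seq had been done on cultured mouse retinal ganglion cells (RGCs, the neurons whose axons form the optic nerve) to compare gene expression after control EGFP AAV, Sox11-IRES-EGFP AAV or Sox11 K91A-IRES-EGFP AAV. In Sox11 K91A the lysine at position 91, a site of SUMO attachment in Sox11, is replaced by alanine. Each group had 2 libraries, called replicate 1 and replicate 2.

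The cells of all groups were purified by immunopanning with CD90.1 and were grown in medium with forskolin, with BDNF at 50 ng/ml, and with CNTF at 10 ng/ml. AAV was added 4 h after plating to wells of 250000 cells, at 1.5 μl or about 100000 vg per cell, so the control cells carried a virus too. The medium was changed in full at 5.5 h and 24 h after exposure to the virus. RNA was taken 72 h after plating. The age of the cells is given as embryonic day 18 in the RNA-seq protocol, and the authors' discussion repeats this age for the RNA-seq. The culture protocol gives postnatal day 2, while the deposited tables are named for postnatal day 0, and this could not be settled. The mice of the study were C57BL/6 of both sexes. The promoter of the vectors and the share of cells transduced are not given in the sources used here. The protocol speaks of 3 RNA samples in duplicates, so the 2 libraries of a group may share their cultures, and p-values then measure a spread that may be technical.

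CRMPs are cytosolic proteins that resemble dihydropyrimidinase but lack its enzyme activity, and they assemble into tetramers of mixed subunits. They are abundant in neurons that are extending axons. CRMPs carry the signal of the repulsive cue semaphorin 3A from its neuropilin and plexin receptors to the cytoskeleton, and their binding to tubulin and other partners is set by kinases such as Cdk5 and GSK3.

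The expected counts, which are the read counts that RSEM assigns to each gene, summed to between 27521982 and 37061718 per library. *Sox11* itself was at 234 and 332 CPM (counts relative to the TMM-scaled library size) in the control libraries, 9178 and 14591 CPM with Sox11, and 11971 and 7026 CPM with Sox11 K91A. On the first principal component, which held 62.9% of the variance, both control libraries lay apart from the other 4. The second, with 18.2%, set control replicate 2 and Sox11 replicate 2 apart from the other 4 libraries. The same pair had the lowest counts of *Xist*, the X inactivation RNA of female cells, with 95.9 and 253.8 CPM beside 400.4 to 526 CPM in the others, so results are also given without this pair where it moves them.

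Of the 10 RGC markers tested, 3 were lower with Sox11 (*Slc17a6*, *Thy1* and *Nefl*), 1 was lower with Sox11 K91A (*Slc17a6*) and none was higher with either. Of all genes, 10.2% were called lower with Sox11 and 4.81% with Sox11 K91A. The summed level of the 10 markers was 11440 and 10610 CPM in control. It was 7967 and 5334 CPM with Sox11 and 6762 and 8378 CPM with Sox11 K91A, below the controls in every library. Over all genes, the control libraries did not overlap with Sox11 for 61.5% and with Sox11 K91A for 61.9%. *Nefl* held the largest part of the summed level, at 7086 and 6345 CPM in control and 2188 to 4328 CPM in the others. *Tubb3* was at 1141 and 1060 CPM in control and higher in the others, at 1336 to 1514 CPM, and was not called. The RGC factors *Pou4f1* and *Isl1* were at 321 to 428 CPM and 260 to 289 CPM in all 6 libraries. The 7 tested markers of Müller glia and astrocytes summed to 111.4 and 107.5 CPM in control and to between 273.2 and 318.8 CPM in the other 4 libraries. Nearly all of that sum was *Glul*, at 104.9 and 97.2 CPM in control and 267 to 310.2 CPM in the others, which was called higher with both Sox11 forms. The other 6 genes were each at 3.87 CPM or less, *S100b* was called lower with Sox11, and *Gfap* had no count in any library. The same held for *Olig2*, *Rcvrn* and *Vsx1* of the lists below. Summed over the tested members, markers of amacrine cells were at 201.0 to 437.5 CPM, of the oligodendrocyte lineage at 39.3 to 51.9 CPM, of endothelial and mural cells at 10.6 to 23.6 CPM and of fibroblasts at 5.21 to 19.3 CPM. Those of dividing cells, microglia and photoreceptor and bipolar cells reached at most 3.43, 1.92 and 2.15 CPM. In these lists the called genes were the amacrine gene *Slc6a9*, at 0.228 and 0.297 of control with Sox11 and Sox11 K91A, *Mog*, 4.04-fold higher with Sox11, and *Pecam1*, 4.09-fold higher with Sox11 K91A. The part of these marker differences in the CRMP results was not tested, and in bulk RNA fewer cells of a type and less RNA per cell cannot be told apart.

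The 5 CRMP genes were among the more abundant transcripts of the cultures. Compared per length, as TPM (counts divided by transcript length and scaled to the same total in each library), their order in control was *Dpysl3* (818 ± 238, SD, n = 2), *Crmp1* (751 ± 48.2), *Dpysl5* (313 ± 80.1), *Dpysl2* (159 ± 28.8) and *Dpysl4* (96.6 ± 8.29). The control libraries of *Dpysl3* and *Crmp1* overlapped, at 986 and 650 TPM against 786 and 717 TPM, and the other neighbours in the order did not. By mean TPM in control, *Dpysl3* ranked 167 and *Crmp1* ranked 187 among the 15747 genes.

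With Sox11 the order was *Dpysl3* (1930 ± 189 TPM), *Crmp1* (1189 ± 31.5), *Dpysl5* (530 ± 34), *Dpysl4* (231 ± 4.07) and *Dpysl2* (184 ± 31.5). With Sox11 K91A it was the same, with *Dpysl3* at 1744 ± 113 TPM, *Crmp1* at 1189 ± 29.9, *Dpysl5* at 516 ± 39, *Dpysl4* at 248 ± 27.6 and *Dpysl2* at 163 ± 0.559. *Dpysl4* and *Dpysl2* had therefore changed places against control, and in neither Sox11 form did neighbours in the order overlap. *Dpysl3* then ranked 38 with Sox11 and 45 with Sox11 K91A. Exact permutation of 2 against 2 libraries cannot give a p below 0.333, so these levels are described without a test.

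**Figure D1:**
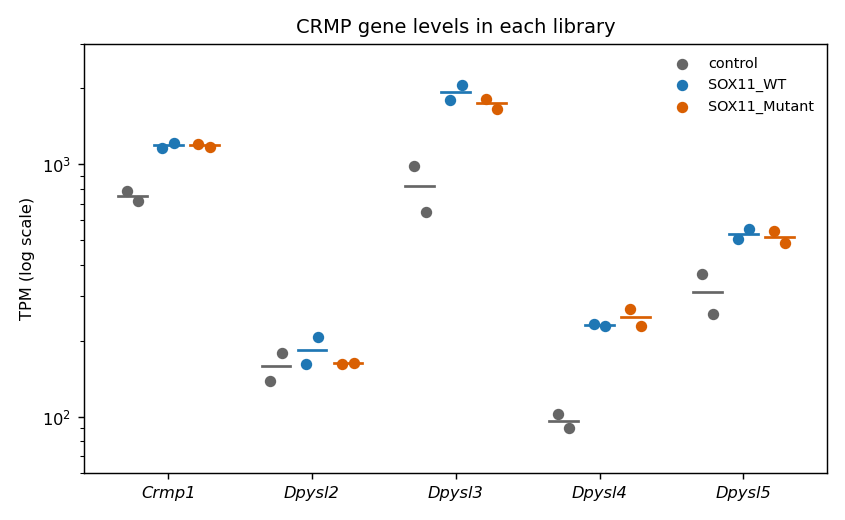
CRMP gene levels in TPM (log axis) in each of the 6 libraries, with points for single libraries and bars for the mean of the 2 libraries of a group. For *Crmp1*, *Dpysl3*, *Dpysl4* and *Dpysl5* all 4 libraries given Sox11 or Sox11 K91A lie above both control libraries, while those of *Dpysl2* overlap.

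*Crmp1*, *Dpysl3*, *Dpysl4* and *Dpysl5* were higher with Sox11 than with control, and *Dpysl2* did not pass the test. Genes were called at an FDR under 0.05 and a fold change above 1.2 by limma-voom, with Benjamini-Hochberg adjusted p-values over all 15747 genes. By this rule 4 of the 5 genes were called, all higher, beside 9.96% of all genes called higher and 20.1% called in either direction. The same 4 genes were called higher with Sox11 K91A against control, beside 5.81% of all genes called higher and 10.6% in either direction. The comparisons share the control libraries. For these 4 genes the libraries of the groups did not overlap in either comparison with control, as was the case for 61.5% of all genes with Sox11 and 61.9% with Sox11 K91A.

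*Dpysl4* encodes CRMP3, one of the less studied members of the family. It was at 149 and 139 CPM in control, 328 and 325 CPM with Sox11, and 388 and 328 CPM with Sox11 K91A. The lowest library given a Sox11 form was thus far above the highest control, and replicates were close in all groups except Sox11 K91A. *Dpysl4* rose 2.27-fold with Sox11 (95% confidence interval 1.79 to 2.88, adjusted p = 0.0113) and 2.48-fold with Sox11 K91A (1.96 to 3.14, adjusted p = 0.0122). It had the largest fold of the 5 genes in both comparisons, although its intervals overlapped those of *Dpysl3*. On the log2 scale 7.61% of all genes had a higher change with Sox11 and 5.77% with Sox11 K91A.

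*Dpysl3* encodes CRMP4, an early marker of postmitotic neurons that binds actin and RhoA. It was at 1899 and 1638 CPM in control, 3554 and 4023 CPM with Sox11, and 3633 and 3368 CPM with Sox11 K91A. It rose 2.14-fold with Sox11 (1.65 to 2.78, adjusted p = 0.0126) and 1.98-fold with Sox11 K91A (1.53 to 2.57, adjusted p = 0.0205). The control libraries lay below the other 4 by far more than replicates of any group differed. Without both libraries low in *Xist* the log2 change was 0.91 with Sox11 and 0.89 with Sox11 K91A. With all libraries it was 1.10 and 0.99.

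*Dpysl5* encodes CRMP5, the member least like the others in sequence, which can oppose the outgrowth promoted by CRMP2. It was at 884 and 680 CPM in control, 1216 and 1281 CPM with Sox11, and 1312 and 1202 CPM with Sox11 K91A. The control libraries were the ones that differed most. It rose 1.61-fold with Sox11 (1.21 to 2.13, adjusted p = 0.0361) and 1.62-fold with Sox11 K91A (1.22 to 2.15, adjusted p = 0.0488), the weakest call of the 4 genes. With edgeR's quasi-likelihood test the adjusted p with Sox11 K91A was 0.0578, and it ranged from 0.0053 to 0.412 over 20 alternatives, of which 8 kept the call. With Sox11 it ranged from 0.0044 to 0.198, and 12 kept the call. Without control replicate 2 the log2 change was 0.49 with Sox11 (adjusted p = 0.0557) and 0.51 with Sox11 K91A (adjusted p = 0.0734), against 0.68 and 0.69 with all libraries. Without both libraries low in *Xist* the log2 change was 0.46 with Sox11 (adjusted p = 0.0781) and 0.51 with Sox11 K91A (adjusted p = 0.0303).

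*Crmp1* encodes CRMP1, a target of Cdk5 and Fyn in the response to semaphorin 3A. It was at 1087 and 1084 CPM in control, 1591 and 1632 CPM with Sox11, and 1678 and 1632 CPM with Sox11 K91A. These replicates were the closest of any CRMP gene in control, and the 4 libraries given a Sox11 form lay in a narrow range. It rose 1.48-fold with Sox11 (1.19 to 1.85, adjusted p = 0.0311) and 1.52-fold with Sox11 K91A (1.22 to 1.90, adjusted p = 0.0381). The call was kept in 13 of 20 alternatives with Sox11 and in 11 of 20 with Sox11 K91A. Whether the folds of the 4 genes differ from each other was not tested.

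Sox11 binds DNA through the HMG box that Sox proteins share. The sequences before the start sites of *Dpysl5* and *Crmp1* are shown with 2 short motifs bound by such boxes. No sequence is shown for *Dpysl3* and *Dpysl4*, which had the larger folds, or for *Dpysl2*. The windows are the 250 bases before a RefSeq start site (GRCm38.p6), 5′ to 3′ on the plus strand, and capitals mark AACAAT or ACAAAG or their reverse complements ATTGTT and CTTTGT. The first is *Dpysl5*, chr5:30711314-30711563, and the second *Crmp1*, chr5:37245514-37245763, before its downstream start.
Dpysl5: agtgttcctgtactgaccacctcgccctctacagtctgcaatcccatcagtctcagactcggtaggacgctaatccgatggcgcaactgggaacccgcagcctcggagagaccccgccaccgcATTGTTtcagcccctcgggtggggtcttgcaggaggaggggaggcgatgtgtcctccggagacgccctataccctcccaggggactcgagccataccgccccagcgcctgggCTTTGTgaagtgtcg
Crmp1: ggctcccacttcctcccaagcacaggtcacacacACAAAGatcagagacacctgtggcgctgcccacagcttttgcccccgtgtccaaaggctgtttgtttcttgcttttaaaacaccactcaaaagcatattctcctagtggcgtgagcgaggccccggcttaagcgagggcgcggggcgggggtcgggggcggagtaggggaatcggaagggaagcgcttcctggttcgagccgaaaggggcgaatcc

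In *Dpysl5* ATTGTT begins 127 bases and CTTTGT 15 bases before the start. In *Crmp1* ACAAAG begins 216 bases before the downstream start, and the window before the upstream start (chr5:37241808-37242057), which overlaps an annotated *Crmp1* exon, holds CTTTGT at 110 bases. Of 32851 such windows of mouse genes, 9.42% hold AACAAT on either strand, 16.5% hold ACAAAG and 24.0% hold either. A match is a description of the sequence and says nothing of binding.

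*Dpysl2* encodes CRMP2, the founding member, which carries tubulin dimers to growing microtubules and promotes axon formation. It was at 304 and 431 CPM in control, 350 and 440 CPM with Sox11, and 357 and 362 CPM with Sox11 K91A. The 2 highest values came from control replicate 2 and Sox11 replicate 2, the libraries low in *Xist*, and all groups overlapped. The fold was 1.09 with Sox11 (0.773 to 1.52, adjusted p = 0.713) and 0.995 with Sox11 K91A (0.709 to 1.40, adjusted p = 0.986). These intervals overlap those of *Crmp1*, which were 1.19 to 1.85 with Sox11 and 1.22 to 1.90 with Sox11 K91A. Whether the changes of *Dpysl2* and *Crmp1* differ was not tested. Without both libraries low in *Xist* the log2 change was 0.21 with Sox11 and 0.25 with Sox11 K91A, against 0.12 and -0.01 with all libraries. In both comparisons with control, 0 of 20 alternatives gave *Dpysl2* an adjusted p under 0.05.

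**Figure D2:**
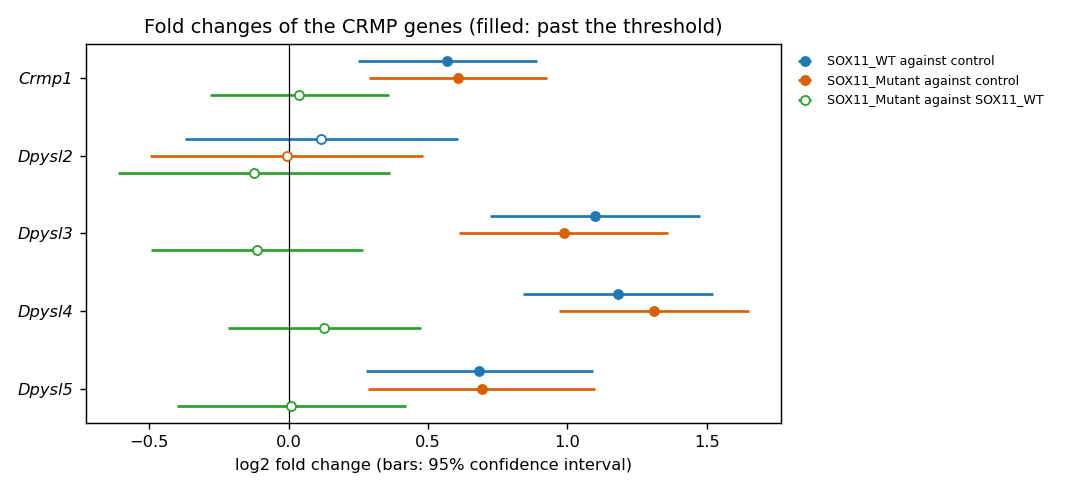
Log2 fold changes of the CRMP genes by limma-voom in the 3 comparisons, with bars for 95% confidence intervals and filled points for genes past the threshold. The 4 called genes lie between 0.57 and 1.31 against control, *Dpysl2* lies near 0, and every interval between the Sox11 forms includes 0.

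Leaving out 1 library ended some of these calls. The log2 changes of the 4 genes were positive in all 20 alternatives of both comparisons with control. With a library left out this had to be so, because every library given a Sox11 form lay above both controls. Without Sox11 replicate 2, limma-voom called 0 of the 5 genes and 0 of all genes with Sox11, while 4 of the 5 and 3347 of all genes had an unadjusted p under 0.05. Without control replicate 2 it called 0 of the 5 and 0 of all genes with Sox11 K91A, while 4 and 4753 had an unadjusted p under 0.05. Calls with Sox11 K91A were also lost when either Sox11 K91A replicate was left out. Without Sox11 K91A replicate 1 the log2 changes were 0.5926 for *Crmp1*, 0.9367 for *Dpysl3*, 1.196 for *Dpysl4* and 0.6351 for *Dpysl5*. Without Sox11 K91A replicate 2 they were 0.6235, 1.037, 1.426 and 0.7521 in the same order. *Dpysl3* and *Dpysl4* were the 2 genes that kept their calls with Sox11 without Sox11 replicate 1 or either Sox11 K91A replicate, and with Sox11 K91A without either Sox11 replicate. In such a fit the lone library of a group is assumed to vary like the other groups.

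No CRMP gene differed between Sox11 K91A and Sox11 past the threshold, the comparison that addresses the SUMO site. The fold of Sox11 K91A against Sox11 was 1.03 for *Crmp1* (95% confidence interval 0.822 to 1.28), 0.917 for *Dpysl2* (0.654 to 1.29) and 0.925 for *Dpysl3* (0.711 to 1.2). For *Dpysl4* it was 1.09 (0.860 to 1.39) and for *Dpysl5* it was 1.01 (0.758 to 1.34). All 5 adjusted p-values were 0.9999. These intervals are for single genes and are not adjusted for the number of genes tested. With 2 libraries per group, differences beyond these limits could therefore also have missed the threshold. In CPM the libraries of *Dpysl4* were the only ones of the 5 genes not to overlap between the Sox11 forms, with 328.2 CPM as the higher Sox11 library and 328.4 CPM as the lower Sox11 K91A library. This was so for 26.6% of all genes, and in TPM the libraries of *Dpysl4* overlapped. Of all genes 0% were called here by limma-voom, 108 had an unadjusted p under 0.05, edgeR called 0 and DESeq2 called 2. None of the 5 CRMP genes had an unadjusted p under 0.05 or was called by edgeR or DESeq2.

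The summed level of the 5 genes was 2383 and 1895 TPM in control, 3865 and 4264 TPM with Sox11, and 4008 and 3711 TPM with Sox11 K91A. The make-up of that sum shifted toward *Dpysl3*, whose share was 41.4% and 34.3% in control, 46.5% and 48.4% with Sox11, and 45.5% and 44.8% with Sox11 K91A. *Dpysl4* also took a larger share, with 4.30% and 4.79% in control against 5.35% to 6.67% in the other 4 libraries. The share of *Crmp1* was 33.0% and 37.9% in control and 28.4% to 31.5% in the others. That of *Dpysl2* was 5.83% and 9.49% in control and 4.05% to 4.84% in the others. For these 4 genes the control libraries lay outside the range of the rest. The shares of a library sum to the whole, so these are not 4 separate results, and a gene can lose share while its level rises, as *Crmp1* did. In CPM, the control libraries did not overlap with Sox11 for 61.5% of all genes and with Sox11 K91A for 61.9%. The share of *Dpysl5* was 15.5% and 13.5% in control, 13.1% and 13.0% with Sox11, and 13.6% and 13.2% with Sox11 K91A. For this gene control overlapped with Sox11 K91A, and the Sox11 libraries lay just below both.

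**Figure D3:**
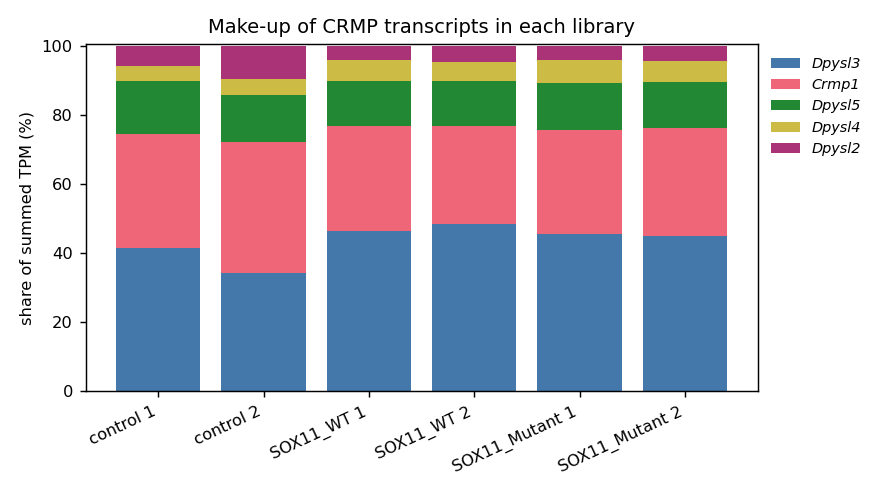
Share of each CRMP gene in the summed TPM of the 5 genes (%) in each library, stacked to the whole. The *Dpysl3* part is largest in all libraries except control replicate 2, where *Crmp1* has 37.9% and *Dpysl3* 34.3%.

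Measured against *Dpysl2* within each library, *Dpysl4* was at 0.737 and 0.505 times its TPM in control, 1.45 and 1.11 times with Sox11, and 1.65 and 1.40 times with Sox11 K91A. *Dpysl3* was at 7.10 and 3.62 times the TPM of *Dpysl2* in control and at 9.99 to 11.2 times in the other libraries. The controls were lower than all other libraries in both ratios. For *Dpysl5*, control replicate 1 had a ratio of 2.66, just under the 2.68 of Sox11 replicate 2, while control replicate 2 had 1.43.

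The abundance-weighted transcript length that RSEM gives for each gene varied little for *Crmp1* (2934 to 2941 bases), *Dpysl4* (2969 to 3092 bases) and *Dpysl5* (4879 to 5002 bases). For *Dpysl3* it was 4002 bases in control replicate 1 and 4737 bases in control replicate 2, against 4115 to 4160 bases in the other 4 libraries. The longer mean length lowers the TPM of *Dpysl3* in control replicate 2, and its CPM, which does not use the length, differed less between the controls (1899 and 1638). *Dpysl2* has 1 transcript in the deposited tables, of 4520 bases, so its isoforms were not separated. *Crmp1* has 2 there against 10 in GENCODE M21, so its length covers only part of its annotated transcripts.

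**Figure D4:**
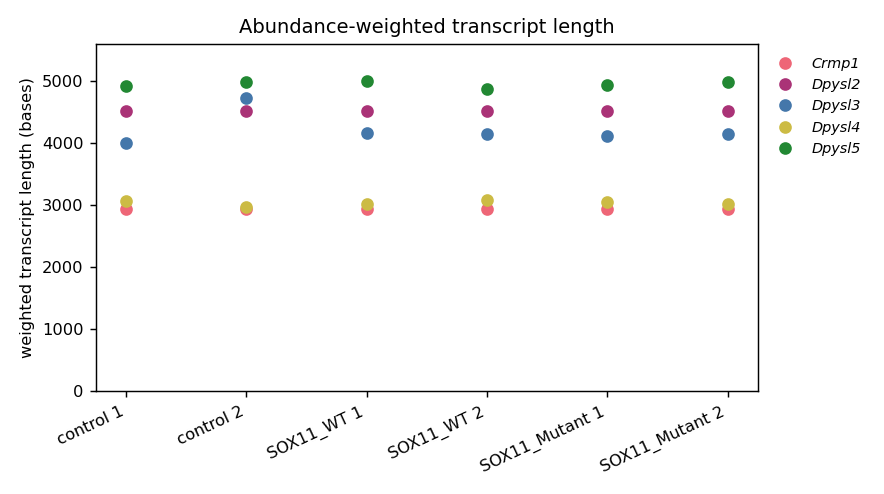
Abundance-weighted transcript length (bases) of each CRMP gene in each library, as deposited. *Dpysl3* in control replicate 2 stands at 4737 bases, above the 4002 to 4160 bases of the other 5 libraries.

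The CRMP genes lie on 4 chromosomes of GRCm38. *Crmp1* is at chr5:37241940-37292133 (plus strand), *Dpysl5* at chr5:30711564-30799375 (plus), *Dpysl2* at chr14:66802864-66868688 (minus), *Dpysl3* at chr18:43320984-43438286 (minus) and *Dpysl4* at chr7:139086001-139102704 (plus). *Crmp1* overlaps *Evc* on the other strand and *Dpysl5* overlaps *Gm42764*, but none of their annotated exons overlap. The uncertainty that RSEM gives for the count, its posterior standard deviation, was 0 for all 5 genes in all 6 libraries.

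The 5 genes differed in how alike their profiles were across the 6 libraries, measured as the root mean square difference of log2 CPM after each profile was centred. The closest members were *Crmp1* and *Dpysl5* (0.122), then *Dpysl3* and *Dpysl4* (0.156) and *Dpysl3* and *Dpysl5* (0.183). *Dpysl2* differed from the others by 0.312 (*Crmp1*) to 0.611 (*Dpysl4*).

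Among all genes tested, those most like *Crmp1* were *Ncoa5* (0.0251), the NuRD subunit *Mta2* (0.0283) and the RNA-binding protein *Raly* (0.0308). Genes close to *Dpysl3* were *Zbtb33* (0.0451), which encodes Kaiso, and *Dock11* (0.0475). *Dpysl4* was most like *Trp53bp2* (0.0591), *Pla2g4e* (0.0823) and the BCL2 family gene *Bok* (0.0890). *Dpysl5* was most like *Emsy* (0.0254), *Ckap5* (0.0312), which encodes a microtubule polymerase, and *Zfp46* (0.0327). *Dpysl2* was most like *Pcnp* (0.0213), *Txndc9* (0.0353) and *Ugcg* (0.0396), which share its highs in control replicate 2 and Sox11 replicate 2. *Ugcg*, for one, was at 70.3 and 97.8 CPM in control and 83.5 and 98.6 CPM with Sox11.

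Genes that act with CRMPs were taken from 6 lists, which held 96 different genes that passed the filter. Of these, 16 were higher and 9 lower with Sox11, 11 were higher and 5 lower with Sox11 K91A, and 0 were called between the Sox11 forms, where 0 had an unadjusted p under 0.05. In all genes tested, 10.2% were called lower with Sox11 and 4.81% with Sox11 K91A, beside the shares for higher genes given above. The median log2 change over all genes was 0.01 with Sox11 and 0.02 with Sox11 K91A.

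On the semaphorin side, upstream of CRMPs, 5 of 24 genes were higher and 3 lower with Sox11 (median log2 change -0.18), and 2 were higher and 2 lower with Sox11 K91A (median -0.11). The ligand *Sema3a* was at 48.3 and 36.0 CPM in control and 68.8 to 90.7 CPM in the other 4 libraries, a rise of 1.92-fold (adjusted p = 0.0242) and 1.91-fold (adjusted p = 0.0357). The receptor *Plxna3* rose 1.86-fold (adjusted p = 0.0179) and 1.94-fold (adjusted p = 0.0233), and the exchange factor *Farp2* rose 2.05-fold with Sox11 (adjusted p = 0.0498). The co-receptor *Nrp1* was at 0.508 and 0.564 of control and passed in neither comparison (adjusted p = 0.0637 and 0.125). *Rnd1*, a small GTPase that binds plexins, fell to 0.261 and 0.326 of control, and *Mical2*, of a family of redox enzymes acting on actin, to 0.371 and 0.359, with adjusted p-values of 0.0373 or less. The receptor *Plxnd1* fell to 0.244 of control with Sox11 (adjusted p = 0.0195), and with Sox11 K91A it was at 0.402 (adjusted p = 0.0574).

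Of 20 kinases and phosphatases that act on CRMPs, 1 was higher and 2 lower with Sox11 (median log2 change -0.11), and 1 was higher and 1 lower with Sox11 K91A (median 0.01). The activators of Cdk5 moved in opposite directions. *Cdk5r1*, encoding p35, was at 256 and 208 CPM in control and 377 to 471 CPM in the others, and rose 1.84-fold (adjusted p = 0.0201) and 1.68-fold (adjusted p = 0.0409). *Cdk5r2*, encoding p39, was at 401 and 324 CPM in control and 181 to 232 CPM in the others, and fell to 0.540 (adjusted p = 0.0188) and 0.605 of control (adjusted p = 0.0418). Their libraries did not overlap between control and either Sox11 form, as for 61.5% of all genes with Sox11 and 61.9% with Sox11 K91A. *Cdk5* itself was at 0.699 and 0.774 of control (adjusted p = 0.0755 and 0.202). *Camk2b* fell to 0.565 of control with Sox11 (adjusted p = 0.0419).

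Among 26 cargo and binding partners, 5 were higher and 3 lower with Sox11 (median log2 change -0.015), and 4 were higher and 1 lower with Sox11 K91A (median 0.04). *Map2*, a microtubule-associated protein of dendrites, rose 2.64-fold and 2.11-fold, the actin crosslinker *Flna* 1.93-fold and 2.02-fold, and *Wasf1*, of the WAVE complex, 2.05-fold and 1.88-fold. *Tuba1b*, an alpha tubulin, fell to 0.345 and the protease gene *Capn1* to 0.328 of control with Sox11. All of these passed with an adjusted p of 0.0385 or less.

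Of 17 other regulators of microtubule growth, 5 were higher and 1 lower with Sox11 (median log2 change 0.50), and 4 were higher and 1 lower with Sox11 K91A (median 0.35). The neuronal microtubule protein *Dcx* was at 300 and 263 CPM in control and 1040 to 1693 CPM in the others, a rise of 5.03-fold (adjusted p = 0.00753) and 4.11-fold (adjusted p = 0.0117). *Stmn1*, which binds free tubulin dimers, rose 2.58-fold and 2.44-fold, and *Clasp1*, a plus-end protein, 1.83-fold and 1.73-fold, with adjusted p-values of 0.0484 or less. *Stmn3* fell to 0.573 of control with Sox11 (adjusted p = 0.0391) and *Map7* to 0.434 with Sox11 K91A (adjusted p = 0.0463).

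None of 8 genes for the SUMO conjugation of CRMP2 was called in any comparison by limma-voom, with median log2 changes of -0.04 and -0.03 against control. An unadjusted p under 0.05 was found for 4 of the 8 with Sox11, 2 with Sox11 K91A and 0 between the Sox11 forms, beside 5985, 4817 and 108 of all 15747 genes. With Sox11 the folds were 1.10 for *Sumo2*, 0.736 for *Sumo3*, 1.53 for *Senp1*, 0.783 for *Senp2*, 0.859 for *Sae1* and 0.935 for *Uba2*. With Sox11 K91A they ran from 0.746 for *Senp2* to 1.46 for *Senp1*. Of the pyrimidine breakdown pathway from which CRMPs descend, *Dpys* and *Upb1* did not pass the filter, and *Dpyd* was at 0.182 to 1.21 CPM and was not called (adjusted p = 0.0643 with Sox11).

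**Figure D5:**
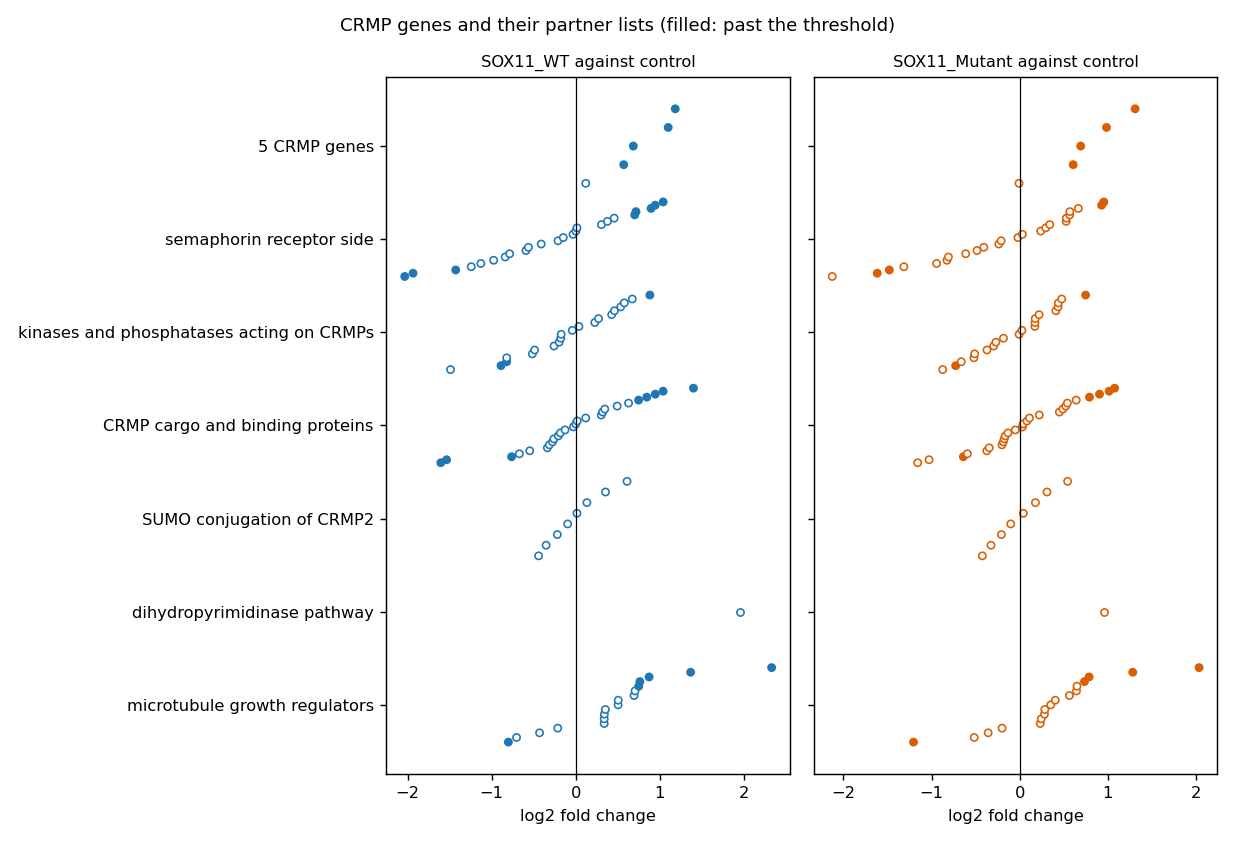
Log2 fold changes of the 5 CRMP genes and of the genes in the 6 partner lists with Sox11 (left) and Sox11 K91A (right) against control, 1 point per gene, spread vertically within a list by rank and filled where past the threshold. The CRMP genes and the microtubule growth regulators lie mostly right of 0, with medians of 0.50 and 0.35 for the latter. The 1 tested gene of the dihydropyrimidinase pathway lies right of 0, and the other lists spread to both sides.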

How the data were processed

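RNA-seq of 6 libraries was used, with 2 in each group. Reads had been aligned by the authors to mm10 with STAR and counted them with RSEM, and the authors deposited expected counts, not normalized, TPM, and a length and a posterior standard deviation of the count for each gene and library. The tool versions, the gene annotation and whether counting used strand are not given in the sources used here, so reads from overlapping genes on opposite strands may not be separable. Symbols and coordinates came from GENCODE M21 (GRCm38), which named 42462 of 43346 genes. The other entries held 1 count in all.

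Expected counts were rounded. Genes were kept with edgeR's filterByExpr (version 4.0.16), libraries were scaled with TMM, and all 6 were fitted in 1 limma-voom model (limma 3.58.1, R 4.3.3) without a covariate. All adjusted p-values are from it, two-sided, unless another tool is named. Calls needed an FDR under 0.05 and a fold change above 1.2. The depth, 27521982 counts or more, gave each CRMP gene at least 4161 counts per library, so the spread between libraries limits the precision more than the counts do. The fit takes that spread from all groups together and draws it toward the spread of all genes. A gene with close replicates can therefore still have a wide interval.

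The CRMP genes and the gene lists were chosen with earlier results of these data known. Named were the CRMP genes, *Sox11*, up to 3 called genes in each direction per list and comparison with control, all members of lists of up to 8, and the 3 genes most like each CRMP gene. *Nrp1*, *Cdk5* and the marker genes were named after their values were seen. Same-numbered libraries were not treated as pairs. Alternatives were edgeR, DESeq2 (version 1.42.0), quality weights, DESeq2's or no size factors, other filters, a fit of 2 groups, a replicate block, unrounded counts, no fold threshold, log2(TPM + 1) or log2(TPM + 0.1), and each library left out. Those on the libraries low in *Xist* and a crossed block were added after seeing the data. For *Dpysl2*, *Dpysl3* and *Dpysl4* no promoter sequence was used here. Some genes that this rule would name are not reported here.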

Additional observations from a re-analysis of the deposited data

How the results depend on the processing

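With 2 libraries per group, calls of the CRMP genes depended on the settings. The log2 changes of *Crmp1*, *Dpysl3*, *Dpysl4* and *Dpysl5* against control were positive in all 20 alternatives. Leaving out a library could not have reversed them, since every library given a Sox11 form lay above both controls. With Sox11 the adjusted p stayed under 0.05 in 13, 19, 19 and 12 of the 20, and with Sox11 K91A in 11, 17, 18 and 8. The count of CRMP genes called with Sox11 was 2 with quality weights and 2 in a fit of only the 2 groups compared, and 0 to 4 with each replicate left out. With Sox11 K91A it was 2 in the fit of 2 groups, 2 with log2(TPM + 1), 2 with log2(TPM + 0.1), and 0 to 4 with each replicate left out. The cause was not tested, except that a fit of 2 groups or of 5 libraries holds fewer samples.

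Of all genes, 979 were called with Sox11 with quality weights, 1598 in the fit of 2 groups, 2107 with log2(TPM + 0.1), 2094 without both libraries low in *Xist*, and 0 to 3753 with each replicate left out (1790 without control replicate 2, 1695 and 1676 without Sox11 K91A replicate 1 and 2). With Sox11 K91A, 3144 were called by DESeq2, 936 with log2(TPM + 1), 896 with log2(TPM + 0.1), 2894 with the libraries low in *Xist* as a covariate, 4108 without them, and 0 to 2563 with each replicate left out (2563 without control replicate 1, 319 without Sox11 K91A replicate 2). DESeq2 called 2 genes between the Sox11 forms.

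The replicate number as a block kept 3 CRMP genes with Sox11 (*Crmp1* lost its call, adjusted p = 0.0583) and 2 with Sox11 K91A (*Crmp1*, 0.0664, and *Dpysl5*, 0.0613), and called 2679 and 1402 of all genes. Deviations of same-numbered libraries from their group means correlated at 0.259 for control with Sox11, at -0.0448 for control with Sox11 K91A and at -0.282 for the Sox11 forms, so the numbers did not pair the samples across all groups, although control replicate 2 and Sox11 replicate 2 deviated together. With the numbers of Sox11 K91A crossed, the block called 0 genes between the Sox11 forms.

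Signs changed only for values that were never called. *Dpysl2* with Sox11 was at -0.13 (log2) without control replicate 1 and -0.04 without Sox11 replicate 2, a range of -0.13 to 0.36 with each replicate left out. With Sox11 K91A it was at 0.0067 with quality weights, 0.042 with log2(TPM + 1), 0.043 with log2(TPM + 0.1), 0.20 with the *Xist* covariate, 0.25 without both libraries, and -0.26 to 0.24 with each replicate left out, including 0.24 without control replicate 2 and 0.0066 without Sox11 K91A replicate 1. Between the Sox11 forms *Dpysl2* was at 0.082 with the covariate, 0.04003 without both libraries and -0.28 to 0.0401 with each replicate left out. *Crmp1* was at -0.00059 with log2(TPM + 1) and -0.00059 with log2(TPM + 0.1). *Dpysl5* was at -0.0394 with either TPM scale, -0.0665 with the covariate and -0.0525 to 0.0748 with each replicate left out. The share of *Dpysl3* with Sox11 K91A was 44.6% from CPM divided by length, against 45.2%.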
